A study of Mus musculus with 8 samples.

Results

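Intergenic regions near coding genes were the open chromatin regions of mouse hepatocytes that lay outside every annotated gene but within reach of a gene start. Each of 8 ATAC-Seq peak lists was collapsed to distinct intervals, the 50000 intervals with the highest −log10 p were kept, and the kept intervals were merged across the lists into 73710 regions. A region was a member if it overlapped no gene body of any type, lay more than 1 kb from every transcription start site (TSS) and lay at most 100 kb from the nearest protein-coding TSS. These criteria gave 16622 members, which were 22.6% of all regions and covered 10.42 Mb. The other classes were intronic regions (28181), promoters within 1 kb of a TSS (17649), exonic regions (6248) and gene desert regions, which were intergenic but beyond 100 kb (5010).

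ATAC-Seq uses the Tn5 transposase to place sequencing adapters in accessible DNA, so that a peak marks open chromatin. The libraries came from C57BL/6 mice (C57BL/6J in the study's methods) 10 to 12 weeks old that ate a normal diet, and held hepatocytes obtained by perfusing the liver with collagenase. The groups were undamaged liver (0 h) and liver sampled 48, 72 or 96 h after partial hepatectomy (PHx), an operation that takes out some of the lobes, with 2 libraries at each of the 4 times. All 3 PHx times were compared with the same 2 undamaged libraries. The mice were male per the study's methods, the labels name no transgene or deletion, and no sham surgery is named for the undamaged livers. The study describes replicates made from separate hepatocyte preparations for undamaged liver and the first PHx time, but the labels tie no library to an animal, so that p-values measure the spread between these libraries.

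Distal regulatory DNA of this kind holds enhancers, which bind transcription factors and act on promoters over a distance, and insulator sites, many of which bind CTCF, a zinc finger protein that helps to fold chromatin into loops. In hepatocytes the enhancers of metabolic and secretory genes are known for sites of HNF4A, FOXA and C/EBP factors, while AP-1 factors are among the first to respond to PHx. An open region need not act on its nearest gene, and the gene names given here state position only.

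The peak lists held 141271 to 213226 lines and no read counts, so the depth behind a peak is unknown. The libraries were not of equal strength. The lowest −log10 p among the kept intervals was 15.2 and 9.96 in the undamaged livers, 8.05 and 8.62 after 48 h, 14.8 and 14 after 72 h and 14.5 and 8.29 after 96 h. The median fold enrichment of the kept intervals was lowest after 48 h, at 6.7 and 7.21, beside 7.97 to 9.35 in the other libraries. Fold enrichments printed for single members are as deposited and carry this difference, whereas log2 differences were computed after quantile normalisation. Of 8 hepatocyte marker promoters, 4 to 8 per library held a listed interval, and the lowest number was in 48 h replicate 1. That library alone had none at Ttr, Apob and Trf, whereas Alb had none in both 48 h, both 72 h and 1 of the 96 h libraries. Kupffer cell markers held 0 or 1 of 5, endothelial markers 1 to 3 of 4, stellate markers 2 to 4 of 4 and bile duct markers 2 or 3 of 4. In bulk samples, fewer cells of a type and less accessibility per cell cannot be told apart. The list of 72 h replicate 2 was named without a tag that the other 7 share. What the tag marks is not given in the sources used here.

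The sequences that carry the main observations are given here, as 200 bp around the summit on the forward strand of mm10, each named by its nearest coding gene. The first set shows 3 of the 6 strongest members, with the stretch that aligned to the mouse mitochondrial genome in capitals.
Abcb11, chr2:69355503-69355702: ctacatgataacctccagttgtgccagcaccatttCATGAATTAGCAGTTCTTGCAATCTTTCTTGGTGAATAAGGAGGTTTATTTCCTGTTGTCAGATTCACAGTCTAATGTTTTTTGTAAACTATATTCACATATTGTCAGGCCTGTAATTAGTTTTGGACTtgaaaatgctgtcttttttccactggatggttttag
Galnt18, chr7:111797446-111797645: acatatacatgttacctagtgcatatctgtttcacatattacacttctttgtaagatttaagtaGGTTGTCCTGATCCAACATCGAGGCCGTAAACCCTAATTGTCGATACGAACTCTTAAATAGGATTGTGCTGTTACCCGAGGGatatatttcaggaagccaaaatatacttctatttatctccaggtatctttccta
Fhl4, chr10:85026079-85026278: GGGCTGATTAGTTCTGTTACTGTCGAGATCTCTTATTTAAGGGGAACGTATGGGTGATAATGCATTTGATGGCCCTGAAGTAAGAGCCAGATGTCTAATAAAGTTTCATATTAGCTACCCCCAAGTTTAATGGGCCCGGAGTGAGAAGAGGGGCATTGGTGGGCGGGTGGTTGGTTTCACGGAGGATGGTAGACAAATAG

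The next set shows members with a CTCF match in capitals, one of them among the strongest and constant over time, the other with the highest values at 96 h.
Phlda3, chr1:135753048-135753247: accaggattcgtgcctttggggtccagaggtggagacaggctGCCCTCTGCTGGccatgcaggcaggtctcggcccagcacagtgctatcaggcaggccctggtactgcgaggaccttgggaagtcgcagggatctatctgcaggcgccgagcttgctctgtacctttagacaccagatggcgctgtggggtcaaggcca
Fbxo5, chr10:5787035-5787234: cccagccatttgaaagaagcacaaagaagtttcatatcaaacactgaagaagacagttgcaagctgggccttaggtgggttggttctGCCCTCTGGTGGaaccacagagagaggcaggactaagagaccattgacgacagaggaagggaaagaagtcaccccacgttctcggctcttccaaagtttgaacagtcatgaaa

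Matches to hepatocyte factors are in capitals in members whose fold enrichment was highest in 1 or both undamaged libraries. The match upstream of Mup21 is to HNF4 (CAAAGTCCA), that near Atrnl1 to FOXA (TGTTTAC, with TATTTAC as its second form) and to the E-box CACGTG, and those near Ptprc to HNF1 and HNF4.
Mup21, chr4:62174532-62174731: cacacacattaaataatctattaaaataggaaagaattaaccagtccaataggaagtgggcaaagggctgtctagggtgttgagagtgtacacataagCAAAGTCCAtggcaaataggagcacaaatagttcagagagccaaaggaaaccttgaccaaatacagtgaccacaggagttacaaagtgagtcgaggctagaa
Atrnl1, chr19:57552974-57553173: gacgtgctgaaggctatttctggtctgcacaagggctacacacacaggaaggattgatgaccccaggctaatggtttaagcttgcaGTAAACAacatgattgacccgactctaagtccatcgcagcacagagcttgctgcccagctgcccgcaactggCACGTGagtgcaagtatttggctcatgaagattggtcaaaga
Ptprc, chr1:138209823-138210022: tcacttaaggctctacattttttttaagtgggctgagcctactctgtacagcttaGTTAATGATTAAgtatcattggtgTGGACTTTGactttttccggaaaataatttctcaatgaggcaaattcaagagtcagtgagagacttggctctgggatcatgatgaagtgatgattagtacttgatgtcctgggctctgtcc

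The last set shows matches to signal-responsive and other factors in capitals. Those near Poc1b are to C/EBP, searched as TTNNGCAA, and to the GATA factors, whose letters were AGATAA. Those near Psme4 are to C/EBP, to STAT factors, searched as TTCNNNGAA, and to TEAD factors, the nuclear partners of Yap, whose letters were GGAATG. The AP-1 motif was searched as TGANTCA and is marked near Mapk9, near Srsf9 along with GATA and TEAD matches, and near E2f7 along with a STAT match. Letters were sought on both strands, and near Psme4 a STAT and the TEAD match overlap.
Poc1b, chr10:99047196-99047395: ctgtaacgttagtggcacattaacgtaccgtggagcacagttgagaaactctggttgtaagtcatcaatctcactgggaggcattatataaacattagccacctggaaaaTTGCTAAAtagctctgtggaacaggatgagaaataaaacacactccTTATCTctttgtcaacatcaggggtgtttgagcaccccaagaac
Psme4, chr11:30748996-30749195: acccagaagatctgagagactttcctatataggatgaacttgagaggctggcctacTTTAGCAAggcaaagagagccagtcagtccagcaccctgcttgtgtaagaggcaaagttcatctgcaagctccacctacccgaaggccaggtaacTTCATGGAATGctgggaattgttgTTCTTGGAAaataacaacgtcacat
Srsf9, chr5:115319698-115319897: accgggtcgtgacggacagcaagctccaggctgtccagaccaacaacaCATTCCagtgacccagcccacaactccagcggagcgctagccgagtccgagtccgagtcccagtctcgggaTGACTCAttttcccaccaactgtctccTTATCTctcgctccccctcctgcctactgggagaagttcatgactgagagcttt
Mapk9, chr11:49840751-49840950: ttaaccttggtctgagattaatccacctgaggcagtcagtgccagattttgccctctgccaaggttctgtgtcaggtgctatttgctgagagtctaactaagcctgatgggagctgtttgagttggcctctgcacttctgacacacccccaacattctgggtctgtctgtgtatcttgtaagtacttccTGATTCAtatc
E2f7, chr10:110707435-110707634: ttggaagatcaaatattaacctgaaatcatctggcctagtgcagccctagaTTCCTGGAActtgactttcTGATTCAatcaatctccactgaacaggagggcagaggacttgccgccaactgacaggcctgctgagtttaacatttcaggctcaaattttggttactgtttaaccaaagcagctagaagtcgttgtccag

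The members were spread over the neighbourhoods of 7620 coding genes, of which 3737 had a single member and 53 had 10 or more. The median distance to the nearest coding TSS was 21718 bp, with quartiles of 9627 and 43836 bp. At the outer limit of the criteria, 448 members lay between 90 and 100 kb, and 395 gene desert regions lay between 100 and 110 kb. Upstream positions made up 68.3% of members. This share fell with distance, from 89.0% within 5 kb to 57.1% between 50 and 100 kb, and gene bodies, which the criteria exclude, lie on the downstream side.

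Most members had a listed interval at every time. An interval in all 8 full lists was present for 11994 members (72.2%), while 5428 (32.7%) were among the 50000 strongest intervals of every library and 2850 (17.1%) were so in 1 library only. The share found in all libraries was 28.1% for intronic regions, 28.0% for gene desert regions, 65.4% for promoters and 38.7% for all regions. Members in all libraries had a median width of 772 bp, against 293 bp for those in 1 library. Width and the number of overlapping intervals share their source, because regions were merged from those intervals.

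Within a library, members were weaker than promoters and stronger than intronic regions. The median percentile of a member's −log10 p among the 50000 kept intervals was 44.4 ± 0.75 (SD, n = 8 libraries). It was 40.8 ± 0.64 for intronic, 42.3 ± 1.24 for gene desert and 70.5 ± 2.05 for promoter intervals. Members exceeded intronic intervals by 3.64 percentile points in 8 of 8 libraries (exact sign-flip permutation test, two-sided, p = 0.00781, the smallest that 8 libraries allow, adjusted p = 0.0117 over 6 comparisons). The size moved with the number of intervals kept, to 1.99 points with the 25000 strongest and 7.56 with all deposited intervals. They exceeded gene desert intervals by 2.08 points in 7 of 8 libraries (exact permutation, adjusted p = 0.0188), a difference of −0.60 with the 25000 strongest and 8.24 with all deposited intervals, and their difference from promoters was −26.04 points (exact permutation, adjusted p = 0.0117).

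On average 19.96% ± 2.35 (SD, n = 8 libraries) of the kept member intervals had no overlapping kept interval in the other library of the same time, against 8.3% ± 1.49 for promoters, 22.9% ± 2.62 for intronic and 22.98% ± 3.6 for gene desert intervals. The difference of members from promoters was 10.12 to 12.89 percentage points at the 4 times, that from intronic intervals −3.45 to −2.24 points and that from gene desert intervals −3.24 to −2.91 points. The 2 libraries of a time share 1 overlap, so that there are 4 independent values, and each difference had p = 0.125, the smallest that 4 allow (exact sign-flip permutation, two-sided). The mean difference from gene desert intervals was −0.38 points with the 25000 strongest intervals and −9.62 with all deposited intervals. Gene desert values ranged up to 30.2% in 96 h replicate 2, the highest of that class.

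**Figure D1:**
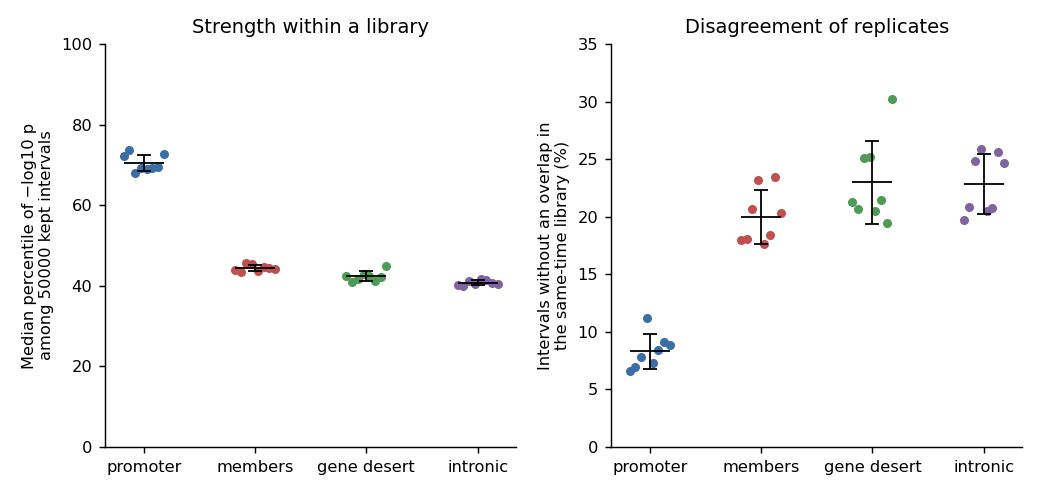
Median percentile of −log10 p (left) and percent of kept intervals without an overlapping kept interval in the other library of that time (right), by class. Points are the 8 libraries and bars the mean and SD. Members lie far below promoters in strength, at 44.4 against 70.5, and 3.64 points above intronic intervals.

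The 6 strongest members stood at mean percentiles of 99.82 and above over the 8 full lists, and 3 of them matched the mitochondrial genome. The strongest, chr2:69355467-69355736, lay 12.9 kb upstream of Abcb11, which encodes the bile salt export pump. Its fold enrichment over local background was 54.5 and 53.4 in undamaged liver, 47.8 and 50.7 after 48 h, 52.1 and 53.8 after 72 h and 46.6 and 58.2 after 96 h. The 0 h and PHx values overlapped. Over 129 bp the sequence printed in capitals above was identical (100%) to mitochondrial DNA.

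The member chr7:111797442-111797661, 17.5 kb upstream of the glycosyltransferase gene Galnt18, matched mitochondrial DNA at 92.8% identity over 83 aligned positions, and chr10:85025889-85026409 near Fhl4 matched at 91.5% over 200. Among all 16622 members, 8 had such a match, the others lying nearest to Nfasc, Chst3, Cebpd, Slc25a54 and Htra3. All 8 were listed in all 8 libraries, at mean percentiles of 83.54 and above. Whether their reads came from the nuclear copies or from mitochondria was not tested.

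The remaining strongest members had no such match. The member chr1:135752792-135753286, 12.8 kb upstream of Phlda3, an inhibitor of Akt signalling, held a CTCF match and had fold enrichments of 38.3 and 31.5 in undamaged liver, 30.7 and 31.5 after 48 h, 35.2 and 33.6 after 72 h and 33.8 and 36 after 96 h. At chr16:4586294-4587115, 7.6 kb upstream of the zinc finger gene Glis2, the values were 24.6 and 24.7 in undamaged liver, 23.4 and 21.4 after 48 h, 25 and 24.7 after 72 h and 25.1 and 28.3 after 96 h. At chr3:9038048-9038802, 33.3 kb upstream of Tpd52, they were 31.1 and 29.4 in undamaged liver, 23.9 and 26.3 after 48 h, 33.1 and 27.5 after 72 h and 30.0 and 30.3 after 96 h. In each of the 6 the undamaged range met that of at least 1 PHx time, and the limma adjusted p was 0.686 or higher at every time.

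**Figure D2:**
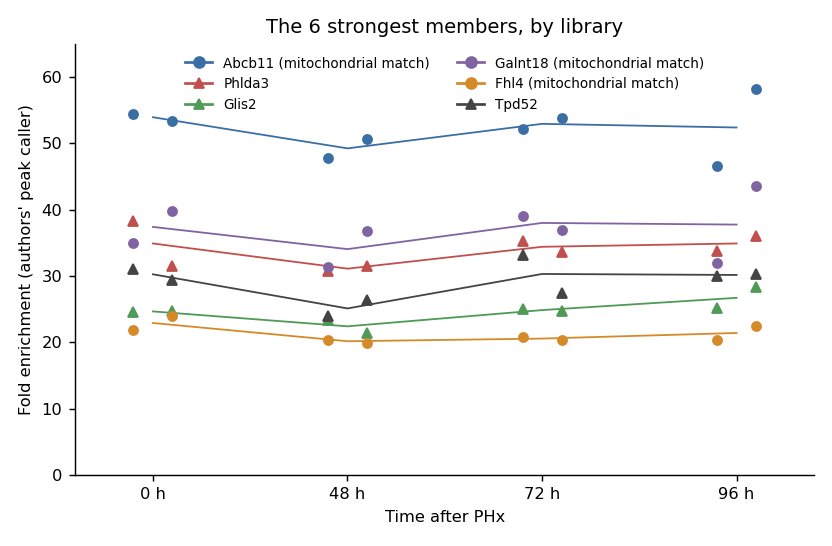
Fold enrichment as given by the authors' peak caller in each of the 8 libraries for the 6 strongest members, named by nearest coding gene. Points are libraries, lines join the means of a time, and circles mark the 3 members with a mitochondrial match. Levels stayed between 46.6 and 58.2 for the member near Abcb11.

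The sequences of members set them apart from the other classes. CTCF matches were the clearest case: 12.3% ± 0.618 (SD, n = 8 libraries) of member intervals held one, against 7.47% of intronic, 7.77% of gene desert and 2.43% of promoter intervals. Over the regions, 1833 members (11.03%) held a match, beside 6.94% of all 73710. Members exceeded each class in 8 of 8 libraries, by 4.78, 4.48 and 9.82 percentage points (exact sign-flip permutation, two-sided, p = 0.00781 and adjusted p = 0.00893 over 48 comparisons of 14 motifs, GC content and repeat share). These comparisons were chosen after the lists had been read. A match is fixed by the sequence and the 8 lists share many regions, so that the 8 differences of a comparison are not independent. In all 48 comparisons the p-values therefore measure only how alike the lists are, and 8 of 8 is not 8 separate observations.

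Motifs of liver factors and of several others were scarcer in members than in gene deserts. C/EBP matches were in 14.1% of member, 15.5% of intronic and 19.5% of gene desert intervals, and FOXA matches were in 8.14%, 9.76% and 12.3% (lower in members in 8 of 8 libraries for each, exact permutation, adjusted p = 0.00893). The GATA and HNF1 shares were lower in members than in both classes as well, by 0.74 and 1.88 points and by 0.08 and 0.22 points. AP-1 matches were in 8.97% of member, 9.34% of intronic and 10.4% of gene desert intervals, and STAT matches in 6.04%, 5.63% and 7.05%, so that STAT was above intronic and below gene desert intervals (8 of 8 libraries for each, exact permutation, adjusted p = 0.00893). The HNF4 share was 1.64% in members, 1.57% in intronic and 1.73% in gene desert intervals, and the difference from gene deserts did not pass (exact permutation, adjusted p = 0.139), whereas that from intronic intervals passed in 7 of 8 libraries (adjusted p = 0.0262). For all of these the member share was above that of promoters. The E-box showed the reverse, with 2.75% in members and 4.11% in promoters, as did the GC box GGGCGG, with 8.53% and 52.9%, and the ETS motif CCGGAAGT, with 0.34% and 4.64%.

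Base composition differed along with these shares. GC content averaged 50.4% in member intervals, 49.7% in intronic, 47.4% in gene desert and 63.8% in promoter intervals, and differed from each in 8 of 8 libraries (exact permutation, adjusted p = 0.00893). Its part in the motif differences was not tested. The repeat-masked share of the windows was 10.6% in members and 5.68% in promoters. Over all regions the share of windows with a match was 7.9% for AP-1, 13.1% for C/EBP, 7.8% for FOXA, 1.36% for HNF4, 8.34% for GATA, 10.3% for TEAD, 5.49% for STAT, 3.17% for the E-box, 16.6% for the GC box, 1.22% for ETS, 0.39% for NR5A2 (TCAAGGTCA), 0.25% for HNF1 and 0.2% for NRF1.

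Among the members, CTCF matches went with strength and FOXA matches with distance. Of members in all 8 libraries 13.7% held a CTCF match, of those in 1 library 6.81%, and of the 1000 strongest 14.4%. The FOXA share was 6.27% within 5 kb of a coding TSS and 10.0% between 50 and 100 kb. The CTCF share was highest between 10 and 25 kb, at 12.6%, and lowest between 50 and 100 kb, at 9.06%. These shares describe 1 set of regions and carry no test.

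The first question over time was whether members took a different part of the open chromatin after PHx. The share of kept intervals in members was 21.35% ± 0.021 (SD, n = 2) in undamaged liver, 21.44% ± 0.228 after 48 h, 21.45% ± 0.049 after 72 h and 21.39% ± 0.484 after 96 h. The time means differed by at most 0.096 points (exact permutation over every division of the 8 libraries in 4 pairs, one-sided, p = 0.971), less than the spread between replicates at 96 h. This span depended on the intervals kept. It was 1.104 points with the 25000 strongest (exact permutation, p = 0.114) and 1.063 with all deposited intervals (exact permutation, p = 0.152). The base-pair Jaccard index within members, the shared length divided by the joint length, averaged 0.538 in the 4 same-time pairs and 0.526 in the 24 other pairs. The excess of 0.0119 did not pass (exact permutation over the same pairings, one-sided, p = 0.0571). The excess depended on the setting. With 200 bp around each summit it was 0.0141 (exact permutation, p = 0.0286), with all deposited intervals 0.00743 (p = 0.238), and it turned to −0.00595 without 0 h replicate 2 and rose to 0.0307 without 96 h replicate 1.

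The second question was which members were gained, that is, kept in both libraries of a time and in neither 0 h library, or lost, the reverse. At 48 h, 503 members (3.03%) were gained and 605 (3.64%) lost, beside 2.65% and 3.5% of all regions. At 72 h, 577 (3.47%) were gained and 505 (3.04%) lost, beside 2.88% and 2.74%. At 96 h, 442 (2.66%) were gained and 446 (2.68%) lost, beside 2.23% and 2.42%. The member shares were close to those of all regions, and no test was made of the difference. The balance of gained and lost depended on the intervals kept: with all deposited intervals 764, 2143 and 1139 were gained at the 3 PHx times in turn and 1089, 433 and 588 lost. Among promoters the 6 shares were 1.21% to 1.94%.

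**Figure D3:**
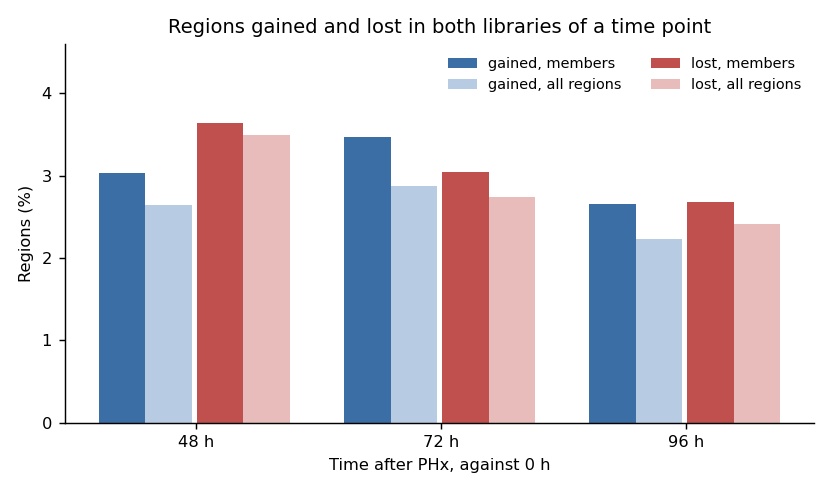
Percent of members and of all regions gained or lost at each time after PHx against 0 h. Blue bars are gained and red bars lost, dark for the 16622 members and light for all 73710 regions; the member shares lie between 2.66% and 3.64%.

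Gained and lost describe passage across the rank of 50000 more than appearance or disappearance. An interval was wholly absent from the full undamaged lists for 19 of the members gained after 48 h, and wholly absent from the full 48 h lists for 19 of those lost. These numbers were 11 and 1 for 72 h and 2 and 3 for 96 h. In 6137 members both libraries of every time were alike. Of these, 5428 were present throughout, 104 at 48 h only, 102 at 0 h only, 99 at every time but 48 h, 71 at 72 h only, 69 at every PHx time but not at 0 h, and 59 at 96 h only. The absences from full lists and the patterns that differ between times were counted for members only. No share of all regions stands beside them, so that they cannot be read as particular to members. The share of PHx intervals missing from a 0 h library was 0.63 ± 2.26 points (SD, n = 6 PHx libraries) above the share missing from the partner, and the difference from intronic intervals, 0.79 points, was above 0 at 3 of 3 times (exact permutation over times, p = 0.25, the smallest that 3 allow). Against gene desert intervals the difference was 2.31, 1.32 and −0.95 points at the PHx times in turn (2 of 3 above 0, exact permutation, p = 0.5), and against promoters 0.5, 2.86 and 0.46 points (3 of 3, exact permutation, p = 0.25).

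The gained and lost members differed in their sequences, which is given as a description with no test. At 48 h a CTCF match was in 74 of the 503 gained members (14.7%) and in 17 of the 605 lost (2.81%). The same was seen over all regions, with 12.3% and 2.25%. C/EBP matches were in 8.95% of gained and 18.4% of lost members, FOXA matches in 4.57% and 8.93%, GATA matches in 7.75% and 12.6% and HNF4 matches in 0.8% and 2.15%. AP-1 matches were in 11.7% of gained and 8.1% of lost members. Over all regions gained and lost at 48 h the contrasts were similar. There the shares were 9.64% and 17.7% for C/EBP, 5.33% and 10.5% for FOXA and 6.97% and 11.5% for GATA. For HNF4 they were 0.72% and 1.98% and for AP-1 11.4% and 7.02%. Among members at 72 h the CTCF shares were 12.3% and 6.14% and the C/EBP shares 12.7% and 12.7%, and at 96 h the CTCF shares were 9.95% and 7.17%. The AP-1 and GATA shares had the opposite order at 96 h, with 7.24% of gained and 9.19% of lost members for AP-1 and 11.09% and 10.54% for GATA. The 2 sets of 48 h had similar GC medians of 49.0% and 48.0%.

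Motif shares per library gave the same comparison a test over libraries. The CTCF share of member intervals was 11.8% and 11.3% in undamaged liver, 12.6% and 13.4% after 48 h, 12.2% and 12.5% after 72 h and 12.4% and 11.96% after 96 h. All 6 PHx libraries lay above both 0 h libraries. The HNF4 share was 1.81% and 1.96% in undamaged liver, 1.46% and 1.4% after 48 h, 1.68% and 1.67% after 72 h and 1.51% and 1.63% after 96 h, so that all 6 PHx libraries lay below 0 h. The FOXA, GATA and E-box shares of all PHx libraries were likewise below both 0 h values, for FOXA by as little as 8.41% against 8.42%. The mean FOXA share was 8.49% at 0 h and 7.93% at 48 h, and the mean GATA share was 9.23% and 8.7%.

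None of the 14 motifs passed after adjustment. The unadjusted p of the exact permutation test (the same pairings, one-sided) was 0.00952 for HNF4, the smallest that this test can give, 0.019 for CTCF and for GATA and 0.0286 for FOXA, and 4 motifs in all had an unadjusted p under 0.05. Their adjusted p was 0.0889 for the first 3 and 0.1 for FOXA, and a lone motif could not have gone below 0.133. AP-1 had shares of 9.0% and 8.31% in undamaged liver and 9.8% and 9.44% after 48 h (exact permutation over the 4 times, adjusted p = 0.253). C/EBP had 14.1% and 15.2% in undamaged liver and 13.4% and 13.04% after 48 h (exact permutation, adjusted p = 0.253). In intronic and gene desert intervals the CTCF means were 1.24 and 1.22 points higher at 48 h than at 0 h, beside 1.45 points in members, with no test of the difference between classes. The HNF4 differences at 48 h were −0.44, −0.61 and −0.45 points in intronic, gene desert and member intervals. In the same order they were −1.25, −1.27 and −0.56 for FOXA, −0.68, −0.87 and −0.53 for GATA and −0.48, −0.4 and −0.41 for the E-box. These falls were thus also seen outside the members, and that of FOXA was smaller in members than in both other classes.

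The part of the weaker 48 h lists in these shares was not tested.

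**Figure D4:**
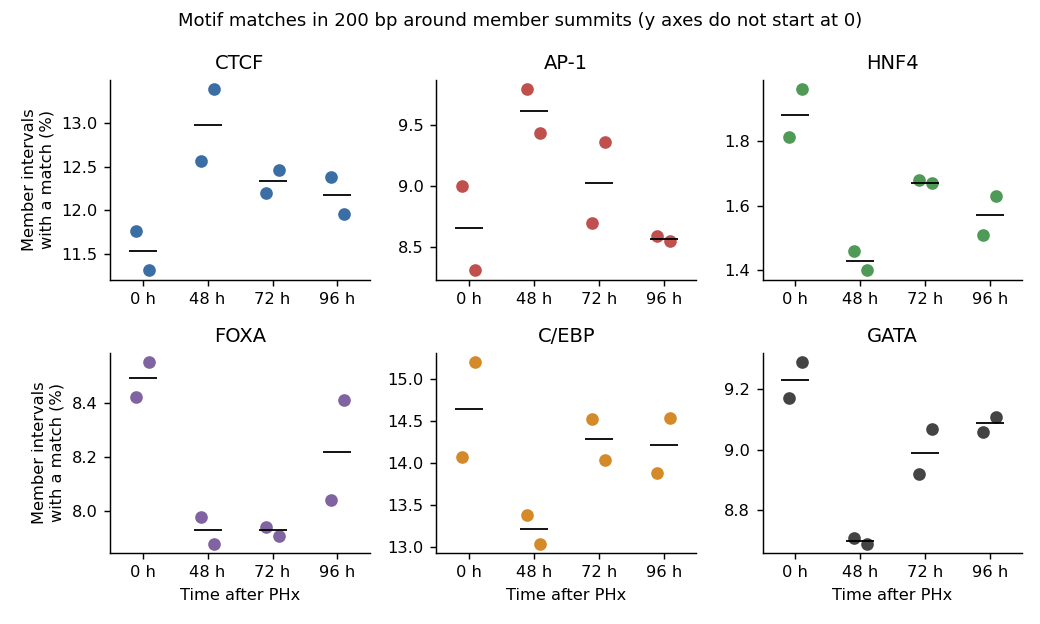
Percent of kept member intervals with a match in 200 bp around the summit, by library and time, for 6 motifs. Points are libraries, dashes the means of 2 libraries, and the y axes do not start at 0. CTCF lies higher and HNF4, FOXA and GATA lie lower in every PHx library than at 0 h, and none of these passed adjustment.

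The third question was whether the fold enrichment of single members differed from 0 h. Of the members, 11994 had an interval in all 8 full lists and entered the limma fit of quantile-normalised log2 fold enrichment over 55123 regions. At an adjusted p under 0.05 and a log2 difference over 0.5, limma called 0 members and 0 of all regions (0.0%) at each time, and 0 by the F test over the 4 times. For members the adjusted p reached 0.068 at 48 h, 0.348 at 72 h and 0.47 at 96 h at the lowest. With an unadjusted p under 0.05, 720 members were higher and 709 lower at 48 h (6.0% and 5.91% of those tested, beside 5.01% and 5.26% of all regions). At 72 h the numbers were 557 and 330 (4.64% and 2.75%, beside 3.8% and 2.57%), and at 96 h 454 and 392 (3.79% and 3.27%, beside 3.1% and 2.64%). These counts depended on single libraries. Without 0 h replicate 2 they fell to 389 higher and 399 lower after 48 h, 290 higher and 179 lower after 72 h, and 250 higher and 215 lower after 96 h. Without 72 h replicate 2, 303 members were higher and 249 lower at 72 h, and without 96 h replicate 1 the balance at 96 h turned to 397 higher and 802 lower. At 48 h it turned too without 48 h replicate 2, with 574 higher and 721 lower.

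The members with the lowest p are given as values that did not pass. At chr6:141221109-141221722, 27.5 kb upstream of Pde3a, a cyclic nucleotide phosphodiesterase, the fold enrichment was 17.4 and 11.4 in undamaged liver, 2.49 and 3.35 after 48 h, 12.3 and 11.4 after 72 h and 8.91 and 6.95 after 96 h. At chr12:104467193-104467923, 5.4 kb downstream of the TSS of Gsc, a homeobox factor of embryonic patterning, it was 12.8 and 13.5 in undamaged liver, 3.2 and 2.13 after 48 h, 10.0 and 7.72 after 72 h and 9.27 and 9.06 after 96 h. Both 48 h values were the lowest of the series at each. The log2 difference at 48 h was −1.99 ± 0.30 and −2.02 ± 0.31 (SE), with an adjusted p of 0.068 for both.

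The lowest p among higher members at 48 h was at chr10:99046954-99047604, 59.4 kb upstream of Poc1b, a centriole gene. Its values were 3.13 and 2.96 in undamaged liver, 7.11 and 9.69 after 48 h, 10.6 and 9.04 after 72 h and 7 and 7.36 after 96 h, so that all PHx libraries lay above 0 h (log2 difference 1.77 ± 0.30 SE at 48 h, adjusted p = 0.117). It was also 1 of the 2 higher members with the lowest p at 72 h (1.67 ± 0.30, adjusted p = 0.348). Near Akap11, which anchors protein kinase A, chr14:78482413-78483327 had 14.3 and 10.4 in undamaged liver, 18.2 and 16.6 after 48 h, 20.9 and 19 after 72 h and 21.6 and 17.8 after 96 h. Here too the PHx libraries lay above both 0 h values (0.90 ± 0.18 at 48 h, adjusted p = 0.206).

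At 72 h the next higher member was chr7:122251340-122252188 near Chp2, with 5.41 and 5.07 in undamaged liver, 6.29 and 8.57 after 48 h, 12.7 and 14.8 after 72 h and 10.5 and 9.4 after 96 h. The lower members were near Cyp2a12, a cytochrome P450 steroid hydroxylase in a cluster of related genes, and Rad23b, a DNA repair gene. The first, chr7:27048860-27049245, had 11.1 and 13.8 in undamaged liver, 3.91 and 2.98 after 48 h, 5.15 and 3.31 after 72 h and 5.09 and 4.91 after 96 h, and the 0 h libraries stood above all others. The second, chr4:55339040-55340309, had 14.3 and 12.6 in undamaged liver, 4.62 and 6.34 after 48 h, 4.58 and 5.72 after 72 h and 8.92 and 7.77 after 96 h. The log2 differences at 72 h were 1.44 ± 0.27 near Chp2, −1.49 ± 0.32 near Cyp2a12 and −1.32 ± 0.29 near Rad23b (adjusted p of 0.348, 0.409 and 0.409).

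At 96 h the lowest p among higher members was near Fbxo5, which encodes the cell cycle regulator Emi1, an inhibitor of the anaphase-promoting complex. This member, chr10:5786681-5787411, is the second CTCF sequence above and had 3.7 and 4.22 in undamaged liver, 4.62 and 6.57 after 48 h, 9.44 and 9.04 after 72 h and 12.4 and 12.1 after 96 h. The 96 h values were the highest of the series (1.65 ± 0.29, adjusted p = 0.47). Near Fer1l6, chr15:58463235-58463709 had 6.7 and 5.39 in undamaged liver, 4.97 and 5.73 after 48 h, 10.3 and 10.7 after 72 h and 15.3 and 12.1 after 96 h, with 72 and 96 h above 0 h (1.24 ± 0.27 at 96 h, adjusted p = 0.563). Among lower members, chr7:29601261-29601798, 95.8 kb upstream of Sipa1l3, had 16.8 and 17.3 in undamaged liver, 8.88 and 10.1 after 48 h, 10.6 and 12 after 72 h and 9.86 and 4.09 after 96 h. The member chr11:30748773-30749387, upstream of the proteasome activator gene Psme4, had 15.7 and 18 in undamaged liver, 10.0 and 10.1 after 48 h, 10.3 and 5.42 after 72 h and 7 and 6.13 after 96 h. At both, 0 h lay above every PHx library (−1.29 ± 0.29 and −1.22 ± 0.28 at 96 h, adjusted p = 0.563).

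**Figure D5:**
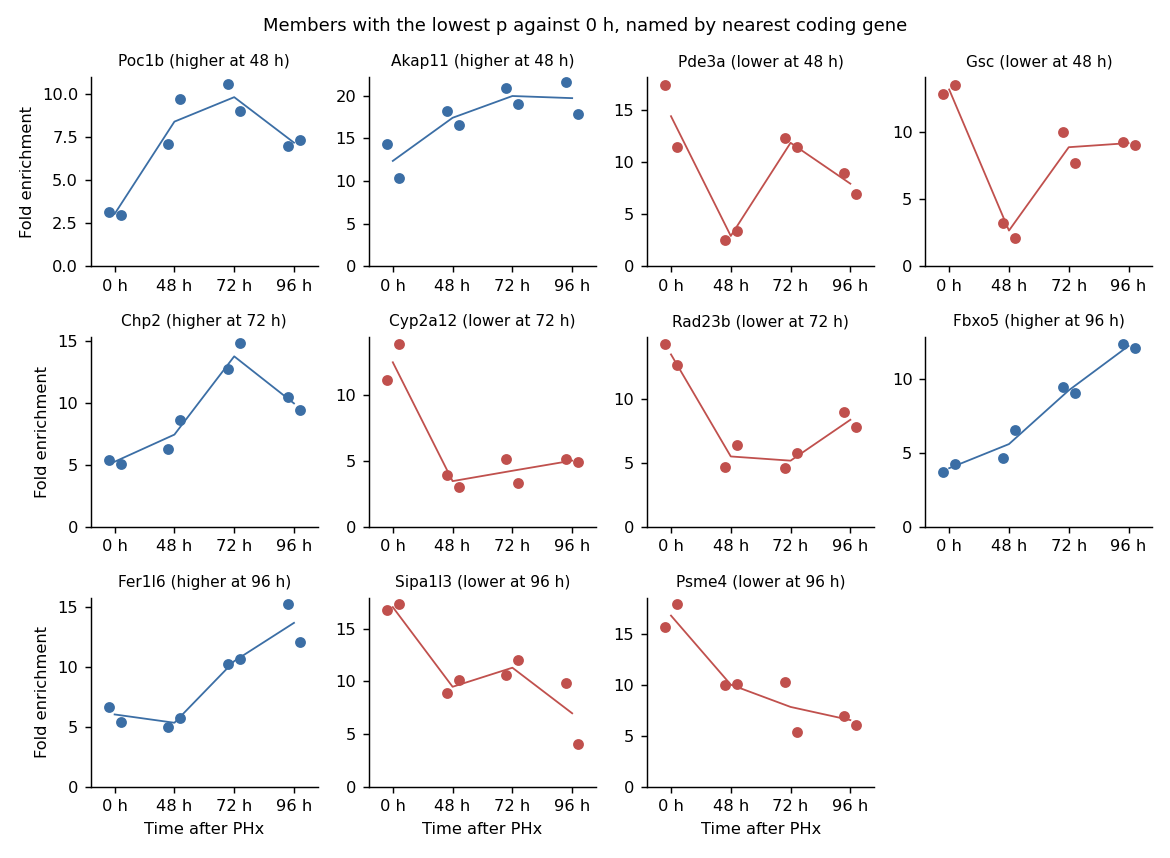
Fold enrichment in each library for the members with the lowest p in each direction and time, named by nearest coding gene. Points are libraries, lines join the means of a time, blue marks higher and red lower members, and the y axes differ. None passed the limma test after adjustment.

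With the −log10 p of the peak in place of fold enrichment, 5 members were called higher (beside 0.0254% of all regions) and 3 lower (beside 0.0127%) at 48 h, and 7 over the 4 times by the F test (beside 0.029%). The higher were the members near Poc1b and Akap11 and those near Gpx5, Irx2 and Mical2, an actin-oxidising enzyme gene. The lower were those near Pde3a and Gsc and chr8:115806121-115807118, 98.3 kb upstream of the transcription factor gene Maf. The fold enrichment near Maf was 18.8 and 16 in undamaged liver, 3.91 and 6.34 after 48 h, 19.6 and 15.5 after 72 h and 17.3 and 12.3 after 96 h. Both 48 h values lay below all 6 others, and the limma difference in log2 −log10 p was −2.04 ± 0.42 (SE, adjusted p = 0.0448). The −log10 p grows with depth, which is unknown here.

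Among the gained members with the highest percentiles at 48 h, chr5:115319465-115320004, 7.2 kb upstream of the splicing factor gene Srsf9, held the AP-1 match printed above. Its fold enrichment was 6.55 and 5.91 in undamaged liver, 9.95 and 11.2 after 48 h, 12.6 and 12.3 after 72 h and 13.4 and 7.77 after 96 h. All PHx values exceeded 0 h. The other 2 lay near Krtap5-1 and near Abt1, where chr13:23425450-23425786 had 4.31 and 2.69 in undamaged liver, 8 and 7 after 48 h, 4.65 and 3.73 after 72 h and 2.46 and no listed interval after 96 h, with the 48 h values above the others.

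Among the members lost at 48 h, chr19:57552818-57553357 near Atrnl1, with matches to FOXA and the E-box, had 18 and 16 in undamaged liver, 3.55 and 5.22 after 48 h, 15.2 and 4.22 after 72 h and 11.8 and 6.13 after 96 h. Near Thrsp, a thyroid hormone-responsive gene of fat synthesis, chr7:97423515-97424152 had 7.17 and 8.7 in undamaged liver, 2.84 and 3.83 after 48 h, 4.93 and 5.01 after 72 h and 4.59 and 5.91 after 96 h. Near Ptpn2, a tyrosine phosphatase gene, chr18:67734246-67734637 had 12.1 and 13.6 in undamaged liver, 4.7 and 4.88 after 48 h, 9.96 and 8.15 after 72 h and 10.3 and 8.2 after 96 h. In all 3 the 48 h libraries were lower than the undamaged ones, and at Atrnl1 the later times spanned 4.22 to 15.2.

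At 72 h the leading gained members were near Six3, Amer2 and Klf14, of which Amer2 is a regulator of Wnt signalling. At chr14:60359777-60360276 near Amer2 the values were 4.84 and 3.8 in undamaged liver, 4.26 and 5.22 after 48 h, 13.2 and 12 after 72 h and 12.7 and 4.5 after 96 h, and the 96 h replicates lay far apart. The leading lost members were near Tram2, Mup21 and Irgm2, an interferon-induced GTPase gene. The member upstream of Mup21, chr4:62174276-62174902, has the HNF4 match printed above and lies in the cluster of major urinary protein genes, whose copies are nearly identical. Its values were 11.9 and 12.2 in undamaged liver, 6.75 and 5.22 after 48 h, 6.01 and 6.02 after 72 h and 7.64 and 5.72 after 96 h, with 0 h above every other library. Whether reads of other copies reached it was not tested.

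At 96 h the leading gained members were near Fer1l6, Zfp423 and Jag1, a Notch ligand gene. The member chr2:137165529-137166193, 48.9 kb upstream of Jag1, had 6.55 and 4.22 in undamaged liver, 3.2 and 5.22 after 48 h, 12.3 and 9.04 after 72 h and 13 and 11.8 after 96 h. The values of 72 and 96 h exceeded those of 0 and 48 h. The leading lost members were near Mapk9, which encodes the kinase JNK2, Tnfsfm13 and Scfd1. The member near Mapk9, chr11:49840639-49841157, held an AP-1 match and had 10.8 and 12.9 in undamaged liver, 5.63 and 6.28 after 48 h, 7.23 and 7.24 after 72 h and 4.99 and 4.32 after 96 h, with the lowest values at 96 h.

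The gene lists place members near genes of known roles, and the share of all members gained or lost, printed above, is the comparison for each. Of 37 genes of adult hepatocyte proteins and enzymes 29 were the nearest coding gene of a member, 90 members in all, of which 63 were tested and 0 called by limma. With an unadjusted p under 0.05, 1, 0 and 0 of the 63 were higher (beside 5.01%, 3.8% and 3.1% of all regions) and 2, 4 and 3 lower (beside 5.26%, 2.57% and 2.64%) at the 3 PHx times in turn. At 48 h 5 were lost (5.56%, beside 3.5% of all regions), at 72 h 8 (8.89%, beside 2.74%) and at 96 h 8 (8.89%, beside 2.42%), while 1, 0 and 1 were gained. The members lost at some time lay near Alb, Arg1, Cps1, Cyp2e1, Cyp7a1, Fabp1, Fga, Otc and Trf. Those gained lay near Fga at 48 h and near G6pc at 96 h. Near G6pc, chr11:101364467-101364901 had 2.57 and 2.44 in undamaged liver and 4.91 and 4.69 after 96 h. Not every lost member was much lower after normalisation. Near Fabp1, chr6:71197705-71197983 was lost at all 3 times, with log2 differences of −0.0, −0.29 and −0.02. Near Arg1, chr10:24958307-24959494 was lost at 72 and 96 h, with −0.17 and −0.18. The median log2 difference of the list was −0.06, −0.11 and −0.10 at the 3 times, beside medians of 0.0011, −0.0158 and −0.0052 over all regions.

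At chrX:10239325-10240357, 11.9 kb upstream of Otc, an enzyme of the urea cycle, the fold enrichment was 9.96 and 9.38 in undamaged liver, 4.97 and 6.34 after 48 h, 4.29 and 4.82 after 72 h and 5.41 and 6.13 after 96 h. Every PHx library lay below 0 h (log2 difference −1.03 ± 0.30 SE at 72 h, limma adjusted p = 0.552). At chr6:71190467-71190802, 9.0 kb upstream of Fabp1, a fatty acid carrier, it was 4.61 and 5.47 in undamaged liver, no listed interval after 48 h, 4.47 and 2.93 after 72 h and 3.87 and 4.82 after 96 h. At chr4:6257997-6258538 near Cyp7a1, the rate-limiting enzyme of bile acid synthesis, it was 4.52 and 8.3 in undamaged liver, 2.34 and 3.82 after 48 h, 3.16 and 2.1 after 72 h and 6.55 and 3.15 after 96 h, and the 96 h and 0 h values overlapped. At chr7:140748172-140749140, 14.6 kb upstream of Cyp2e1, it was 8.82 and 7.47 in undamaged liver, 4.26 and 5.22 after 48 h, 5.72 and 7.53 after 72 h and 4.14 and 4.91 after 96 h. The ranges of 0 h and 72 h overlapped there. These 4 were chosen after their values were seen, and the time points share the same 0 h libraries. The part in these counts of the marker promoters without a listed interval was not tested.

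Near the 22 hepatocyte transcription factor genes there were 71 members of 16 genes, with 3 lost at each time and 1 gained, at 48 h. That gained member, chr1:190085783-190086054 near Prox1, was listed in neither 0 h library and had fold enrichments of 5.68 and 6.34 after 48 h, 4.58 and 6.15 after 72 h and 4.77 and 6.13 after 96 h. Among the lost was chr12:57515556-57516328, near the pioneer factor gene Foxa1, with 10.9 and 8.75 in undamaged liver, 5.33 and 4.47 after 48 h, 6.01 and 5.12 after 72 h and 7.32 and 4.91 after 96 h. All PHx values lay below 0 h (−0.76 ± 0.31 at 72 h, limma adjusted p = 0.71). Of the 7 members of the list lost at some time, this held only near Foxa1 and Nr1h4. Near Onecut1, chr9:74900031-74900482, lost at 48 h, had 4.85 and 7.15 in undamaged liver and 8.4 and 8.24 after 96 h. Near Cebpa, chr7:35146107-35146706, lost at 48 and 96 h, had log2 differences of 0.01 and −0.26 at these times. The strongest members of the list lay 49.8 and 59.9 kb upstream of Nr5a2, a nuclear receptor gene. The former, chr1:137010206-137011156, had 16.7 and 12.5 in undamaged liver, 12.6 and 12.8 after 48 h, 14.1 and 13.6 after 72 h and 14.8 and 12.1 after 96 h. The latter, chr1:137020322-137021185, had 20.1 and 15.8 in undamaged liver, 11.6 and 12.2 after 48 h, 17.7 and 13.4 after 72 h and 15 and 15.7 after 96 h. At the second both 48 h values were below all others, though the normalised difference at 48 h was −0.16 ± 0.20 (SE), and neither member was called.

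Near the 24 immediate-early and growth signalling genes there were 72 members of 19 genes, with 1, 2 and 3 gained and 3, 2 and 1 lost at 48, 72 and 96 h. The gained member of 48 h lay 14.5 kb upstream of Egfr, the epidermal growth factor receptor gene, and held an AP-1 match. This member, chr11:16737374-16737680, had 3.5 and no listed interval in undamaged liver, 6.43 and 4.56 after 48 h, 4.95 and 5.31 after 72 h and 3.65 and no listed interval after 96 h. The 3 members lost at 48 h lay near Gadd45b, a growth arrest and stress gene, Klf6, a zinc finger factor gene, and Atf3, a stress-induced factor gene. The first, chr10:80939597-80939992, had 7.15 and 5.63 in undamaged liver, 3.03 and no listed interval after 48 h, 4.01 and 5.63 after 72 h and 6.14 and 4.21 after 96 h. The second, chr13:5811544-5812140, had 7.11 and 9.29 in undamaged liver, 2.84 and 4.1 after 48 h, 6.58 and 6.63 after 72 h and 5.41 and 8.18 after 96 h, a log2 difference of −0.94 ± 0.34 (SE) at 48 h that did not pass (limma, adjusted p = 0.356). The third, chr1:191239171-191239979, was lost at 72 h as well and had 8.46 and 7.95 in undamaged liver, 4.62 and 3.42 after 48 h, 4.52 and 3.58 after 72 h and 7.22 and 5.22 after 96 h. In each of the 3, every value listed at 48 h lay below both 0 h values. The 2 members gained at 72 h also lay near Atf3. At chr1:191236093-191236551 the values were 5.66 and no listed interval in undamaged liver and 6.84 and 5.79 after 72 h. At chr1:191258045-191258404 they were 3.53 and 3.0 in undamaged liver, 3.75 and 3.54 after 72 h and 4.98 and 4.67 after 96 h. This latter member was gained at 96 h as well, along with members near Btg2 and Jund. The other lost members lay near Fos at 72 h and near Areg at 96 h. The strongest by −log10 p were chr8:84658651-84661207 near Ier2 and chr1:191254370-191255020 near Atf3. The first had 4.69 and 4.08 in undamaged liver, 5.23 and 4.85 after 48 h, 5.26 and 4.83 after 72 h and 4.82 and 4.92 after 96 h, and the second had 11.4 and 12.8 in undamaged liver, 11.7 and 9.86 after 48 h, 12.3 and 11.9 after 72 h and 8.2 and 13.4 after 96 h. At this strong member near Atf3 the 96 h replicates spanned 8.2 to 13.4, which covers every other value of that member.

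Cell cycle genes had few members, 31 near 9 of 26 genes, and 15 of them (48.4%) were in all 8 libraries, beside 32.7% of all members. Near E2f7, a repressor of cell cycle genes, the member chr10:110707025-110708630 with the AP-1 and STAT matches printed above had 17 and 15.9 in undamaged liver, 11.7 and 13.3 after 48 h, 20.8 and 16.6 after 72 h and 18 and 16.5 after 96 h. Both 48 h values were the lowest as deposited, while the normalised log2 difference was 0.03 ± 0.18 (SE, limma adjusted p = 0.972). Near Ccne1, which encodes cyclin E1, chr7:38084581-38086282 had 18.3 and 22.5 in undamaged liver, 10.3 and 12 after 48 h, 16.3 and 14.5 after 72 h and 12.9 and 17.4 after 96 h. The only gained member of the list lay near Ccne2 at 48 h, and the only lost one near Aurkb at 72 and 96 h, where fold enrichments were 2.79 to 3.74 over all libraries.

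Progenitor and fetal genes had 64 members near 21 of 26 genes, with 2, 2 and 0 gained and 1, 2 and 1 lost. The member chr2:167528295-167528750, 9.4 kb upstream of Snai1, a factor of epithelial-mesenchymal transition, was gained at 48 and 72 h and had 5.69 and 4.22 in undamaged liver, 8.53 and 7.1 after 48 h, 8.01 and 6.68 after 72 h and 8.22 and no listed interval after 96 h. The member chr10:43575058-43575330, 3.8 kb upstream of Cd24a, a surface glycoprotein gene of progenitor cells, was lost at all 3 PHx times, with 9.96 and 7.79 in undamaged liver, 3.89 and no listed interval after 48 h, 4.48 and 3.47 after 72 h and 5.0 and no listed interval after 96 h. The other lost member, chr13:28930321-28930804 near the SOX factor gene Sox4, was lost at 72 h and had 8.23 and 7.8 in undamaged liver, 4.56 and 4.64 after 48 h, 4.81 and 4.87 after 72 h and 6.11 and 6.81 after 96 h. Every value listed after PHx lay below both 0 h values in these 2 lost members and above both in the member near Snai1. The other gained members lay near Gli2 at 48 h and near Smad2 at 72 h. At chr1:119083709-119083980 near Gli2 the values were 5.66 and no listed interval in undamaged liver and 5.25 and 4.77 after 48 h. The listed 0 h value there exceeded both 48 h values. At chr18:76164031-76164661 near Smad2 they were 4.01 and 3.56 in undamaged liver and 5.17 and 4.82 after 72 h. Among the strongest of the list, chr1:119146545-119147416 near Gli2, a Hedgehog pathway factor gene, had 18.5 and 17 in undamaged liver, 10.7 and 14.1 after 48 h, 19.6 and 16.2 after 72 h and 17.2 and 14.8 after 96 h. Its normalised log2 difference at 48 h was −0.1 ± 0.18 (SE, limma adjusted p = 0.899). Genes of other liver cells had 17 members near 12 of 25 genes, 14 of them tested and 0 called. The strongest, chr1:138209558-138210377, lay 34.3 kb upstream of the leukocyte gene Ptprc but held the HNF1 and HNF4 matches printed above, and had 19 and 15.8 in undamaged liver, 11.9 and 8.71 after 48 h, 12.5 and 15.1 after 72 h and 15.9 and 13.1 after 96 h. Of the 17 members near genes of other liver cells, 0 were gained. At 48 h 1 was lost and at 72 h 1 (5.88% each, beside 3.5% and 2.74% of all regions). The first, chr5:22433553-22434249 near Reln, had 9.18 and 10.2 in undamaged liver and 3.64 and 3.06 after 48 h (log2 difference −1.21 ± 0.31 SE, limma adjusted p = 0.246). The second lay near Adgre1 (−0.6 ± 0.32 SE at 72 h, limma adjusted p = 0.823). In each of the 6 lists 0 members were called by limma, and the shares of all regions for the counts that follow are those printed above. At an unadjusted p under 0.05 at 48 h, 4 of 57 tested members near transcription factor genes were higher and 1 lower, 0 and 3 of 52 near immediate-early genes, 1 and 4 of 23 near cell cycle genes, 2 and 2 of 45 near progenitor genes and 0 and 1 of 14 near genes of other liver cells. At 72 and 96 h no more than 3 members of any of these lists were higher and no more than 2 lower.

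The genes with the most members were Vegfa (17), Irf2bp2 (16), Hes1, Slc45a1 and Tob1 (15 each) and Nudt7 (14). Vegfa encodes a growth factor of blood vessels, Hes1 a Notch target repressor and Tob1 an antiproliferative protein. The Vegfa members spanned 116.7 kb, 4 of them were in all 8 libraries and 0 held a CTCF match. At the 3 PHx times 4, 2 and 2 of the 17 were lost, beside 3.5%, 2.74% and 2.42% of all regions, and 0 gained. The member chr17:45950465-45951228, 80.1 kb downstream of the Vegfa TSS, had 8.48 and 9.71 in undamaged liver, 3.91 and 2.98 after 48 h, 7.63 and 5.72 after 72 h and 7.54 and 4.5 after 96 h, with both 48 h values the lowest (−1.08 ± 0.32 SE, limma adjusted p = 0.3). The member chr17:45940135-45940475 had 7.11 and 9.29 in undamaged liver, 3.55 and no listed interval after 48 h, 5.72 and 5.42 after 72 h and 6.36 and 3.27 after 96 h, and both 0 h values were the highest. The other 2 lost members were not lower throughout. At chr17:46005574-46005825 the values were 4.41 and 4.69 in undamaged liver, 4.11 and no listed interval after 48 h, 5.05 and 4.13 after 72 h and 4.06 and no listed interval after 96 h. At chr17:46038824-46039273, lost at 48 h, they were 6.41 and 7.17 in undamaged liver, no listed interval and 4.12 after 48 h, 8.39 and 4.92 after 72 h and 8.65 and no listed interval after 96 h. Of the 15 Hes1 members 1 was lost, at 72 h, and of the 15 Tob1 members 7 were in all 8 libraries.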

How the data were processed

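The members and gene lists were chosen with earlier results of these data known. The authors trimmed and mapped the reads to mm10 with Bowtie2 in the ENCODE ATAC-Seq pipeline, removed duplicates and called peaks per library with MACS2. The deposited lists give, per peak, a score that was not used here, a fold enrichment (a ratio to local background), a −log10 p, a −log10 q that was not used, and a summit. Depth is not given in the sources used here, so no interval that needs it was computed.

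Of lines sharing 1 interval, that of highest −log10 p gave the summit. Regions were merged at 1 bp of overlap and annotated with GENCODE M21 basic (77161 TSS positions, 41492 of coding genes). Coordinates are mm10, sequence is GRCm38.p6, and 0 intervals ran past a chromosome end. Percentiles rank −log10 p within a list. Replicate numbers were taken from the labels. Fold enrichment of the strongest listed peak in a region was put on a log2 scale, quantile-normalised and fitted with limma 3.58.1 (R 4.3.3), with trend and Benjamini-Hochberg adjustment over 55123 regions present in all 8 full lists, and the fit was tested on simulated data for 48 h against 0 h over 55123 regions, in which 25 of 100 changes of log2 1 and 95 of 100 of log2 2 were recovered, with 10 false calls. Changes of log2 1 would thus mostly be missed. Regions lacking an interval in any list did not enter. Other tests were exact permutations over libraries, or over times where the 2 libraries of a time share a value; the comparisons of motifs, GC content and repeats between classes, and of 0 h with partner libraries, were added after the lists had been read. Matches to mitochondrial DNA were sought with blastn 2.17.0 at an E value of 1e-10. Both strands of the 200 bp around each summit were searched for 14 motifs, and CTCF, HNF1 and NRF1 are given by name. Named regions were the 6 strongest members, per time and direction the 2 with the lowest limma p, the 3 gained and 3 lost with the highest percentile in the weaker of their 2 libraries, the 2 strongest per gene list, and the 6 genes with the most members; regions called by −log10 p, and other gained or lost regions named near listed genes or Vegfa, were picked after their values were seen. Alternatives were 25000 or all intervals, absence from the full lists, 50% coverage, limits of 50 and 5 kb, windows of 400 bp, median centring, regions in at least 2 full lists, the −log10 p as measure, a replicate block and leaving out each library. Some regions that these rules select are not reported here.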

Additional observations from a re-analysis of the deposited data

How the results depend on the processing

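The replicate numbers shared by the groups did not pair the libraries (correlations of deviations of −0.056 to 0.128), and a replicate block called 0 members at every time, as without it. With the −log10 p as measure, 5 members were called higher and 3 lower at 48 h, and 7 over the 4 times, beside 14, 7 and 16 of all 55123 regions. Leaving out 1 library, the calls ranged from 0 to 3 for higher at 72 h (3 without 0 h replicate 1, beside 6 of all 55330 regions), from 0 to 4 for lower at 48 h (4 without 48 h replicate 1, beside 7 of 57629, and 2 without 48 h replicate 2, beside 4 of 56407) and from 0 to 1 for lower at 96 h (1 without 96 h replicate 1, the only one of 55369). Members at an unadjusted p under 0.05 ranged from 389 to 835, from 290 to 735 and from 250 to 657 for higher and from 399 to 804, from 179 to 396 and from 215 to 802 for lower at the 3 times. The lone library is then assumed to vary like the others. Members gained at 48, 72 and 96 h ranged from 882 to 1448, from 989 to 1411 and from 815 to 1389 without 1 library, and those lost from 1160 to 1515, from 1027 to 1442 and from 990 to 1341, since fewer libraries must then be alike. With all deposited intervals 764, 2143 and 1139 were gained and 1089, 433 and 588 lost. With 25000 intervals 311 and 284 were gained at 72 and 96 h and 389, 297 and 281 were lost. Absence from the full lists left 19, 11 and 2 gained and 19, 1 and 3 lost. The Jaccard excess was 0.01409 with 200 bp around each summit and 0.00743 with all intervals. Without 1 library it ranged from −0.00595 (without 0 h replicate 2, the direction turned) through 0.00274 (without 72 h replicate 2) to 0.03065 (without 96 h replicate 1). The strength of members minus gene desert intervals turned to −0.601 percentile points with 25000 intervals and was 8.241 with all, and that minus intronic intervals was 1.987 and 7.558, and the share missing from the partner, minus gene desert intervals, was −9.622 points with all intervals, −0.376 with 25000 and −3.06 to −2.948 without 1 library. Taken over 8 libraries, it passed with all intervals (exact permutation, p = 0.01562) and without either 96 h library (p = 0.03125), but the libraries of a time are not independent in this share. With 1 mean per time, an alternative chosen after seeing the data, the differences of −2.901 from intronic intervals and 11.661 from promoters no longer passed, since 4 times allow no smaller p than 0.125. The span of the member share between times was 0.096 points in the main setting, 1.104 with 25000 intervals and 1.063 with all. Without 1 library it ranged from 0.081 to 0.397 points. The causes were not tested, except where the construction of an alternative fixes them. In 163 cases a value kept its direction and side of the threshold or stayed near the main value, in 48 it moved, in 4 the threshold was newly passed, in 2 no longer passed and in 2 the direction turned. Depth is unknown, so that a missing interval is no measure of closed chromatin.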
